A study of Mus musculus with 77 samples.

Results

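The RNA held on tagged Sertoli cell ribosomes late after retinoic acid (RA) was compared with total testis RNA in mice that carried Amh-Cre:RiboTag. The comparison takes 8 arrays of the 77 in the series: 2 of immunoprecipitated (IP), polysome-associated RNA and 2 of total RNA at 8d after RA, and 2 of each at 6d. They were chosen by their labels for line, fraction and time, and the IP minus total difference was averaged over both times. All these animals, and those of the Stra8-Cre:RiboTag line set beside them (8 arrays at the same times), were FVB/N and had been given the RA synthesis inhibitor BDAD on 9 days in a row before the RA injection. Earlier times of the Amh line (16 arrays at 0, 12h, 24h and 48h) serve as a second comparison, with time 0 killed after the inhibitor and no RA. The labels used here give no age and do not say how many testes went into a sample. They do not say either whether replicates were separate animals. A p-value here thus measures no more than the spread between replicate samples, estimated over all 77 arrays of the series. That spread may be technical.

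Sertoli cells are the somatic cells of the seminiferous tubule that enclose and nourish germ cells, form the blood-testis barrier and secrete anti-Müllerian hormone. A RiboTag allele adds an epitope tag to the ribosomal protein RPL22 in cells that express Cre, so that an antibody pulls down their ribosomes with the mRNA they are translating. Amh-Cre is active in Sertoli cells and Stra8-Cre in germ cells. BDAD blocks the aldehyde dehydrogenases that make RA, which holds spermatogonia before differentiation until RA is injected and they go on in step towards meiosis. Total RNA holds every cell of the testis, so a gene is high in IP RNA relative to total where the tagged cells hold much of the tissue's message on ribosomes. How much untagged RNA the IP carried over was not tested, and in such bulk samples fewer cells of a type and less RNA per cell cannot be told apart.

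Across all genes the log2 values of replicates in these groups correlated with r between 0.992 and 0.997 (genes are not independent replicates), and array medians lay between 256 and 285 intensity units. Values are RMA intensities, given for replicate 1 and then 2, with no true zero, and the lowest on any array was 25.1. Differences are IP minus total on the log2 scale ± SE from a limma fit over all arrays, with Benjamini-Hochberg adjusted p-values over all genes. The 6d samples numbered 1 were low in Leydig cell signal, and the total sample also in macrophage signal. In total RNA the mean log2 intensity of the Leydig cell list was 9.34 in 6d replicate 1 and 9.95 in 6d replicate 2. At 8d it was 10.17 and 10.20. That of the macrophage list was 8.17 in 6d replicate 1 and 8.78 in 6d replicate 2. In 6d IP RNA the Leydig cell list was at 8.67 and 9.19 and the macrophage list at 7.69 and 7.78. The gene that carries the tag, Rpl22, was not called between the fractions (0.15 ± 0.07, adjusted p = 0.0698).

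The label was first checked on Sertoli cell markers. Gata1, a transcription factor that marks Sertoli cells in the testis, measured 4407 and 4784 in IP RNA, against 1629 and 2102 in total RNA at 8d, and 4611 and 5072 in IP RNA, against 1973 and 2143 in total RNA at 6d. All 4 IP arrays lay above all 4 total arrays, a 2.42-fold difference (log2 1.27 ± 0.12, adjusted p = 1.12e-12). Bbox1, the last enzyme of carnitine synthesis, had 1654 and 2047 in IP RNA, against 516 and 641 in total RNA at 8d. At 6d its values were 1175 and 1839 in IP RNA, against 292 and 556 in total RNA, and the IP arrays were again the higher at each time (3.42-fold, log2 1.77 ± 0.18, adjusted p = 3.71e-12). Trf, the iron carrier transferrin, showed 3029.9 and 3859 in IP RNA, against 1359 and 2296 in total RNA at 8d and 1091 and 1763 in IP RNA, against 776 and 1485 in total RNA at 6d. The fractions overlapped at 6d, and the difference was under 2-fold (log2 0.66 ± 0.18, adjusted p = 0.00193), so Trf was not called under the rule used throughout: an adjusted p under 0.05 and a difference of at least 2-fold.

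Anti-Müllerian hormone itself, Amh, had the largest difference of the genes named by rule as higher. It measured 3628 and 3115 in IP RNA, against 921 and 824 in total RNA at 8d and 4365 and 4206 in IP RNA, against 1279.9 and 1156 in total RNA at 6d (3.69-fold, log2 1.88 ± 0.22, adjusted p = 2.26e-10). Markers of germ cells (Sycp3, Ddx4, Kit), Leydig cells (Cyp17a1), macrophages (Lyz2) and endothelium (Cd34) were lower in IP RNA, as described further on. The Leydig cell marker Star was not called, with means over both times of 1413 in IP RNA and 1563 in total RNA. The smooth muscle actin gene Acta2, a myoid marker, was at log2 -0.98 ± 0.15 (adjusted p = 2.48e-07), just under 2-fold and so not called.

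**Figure D1:**
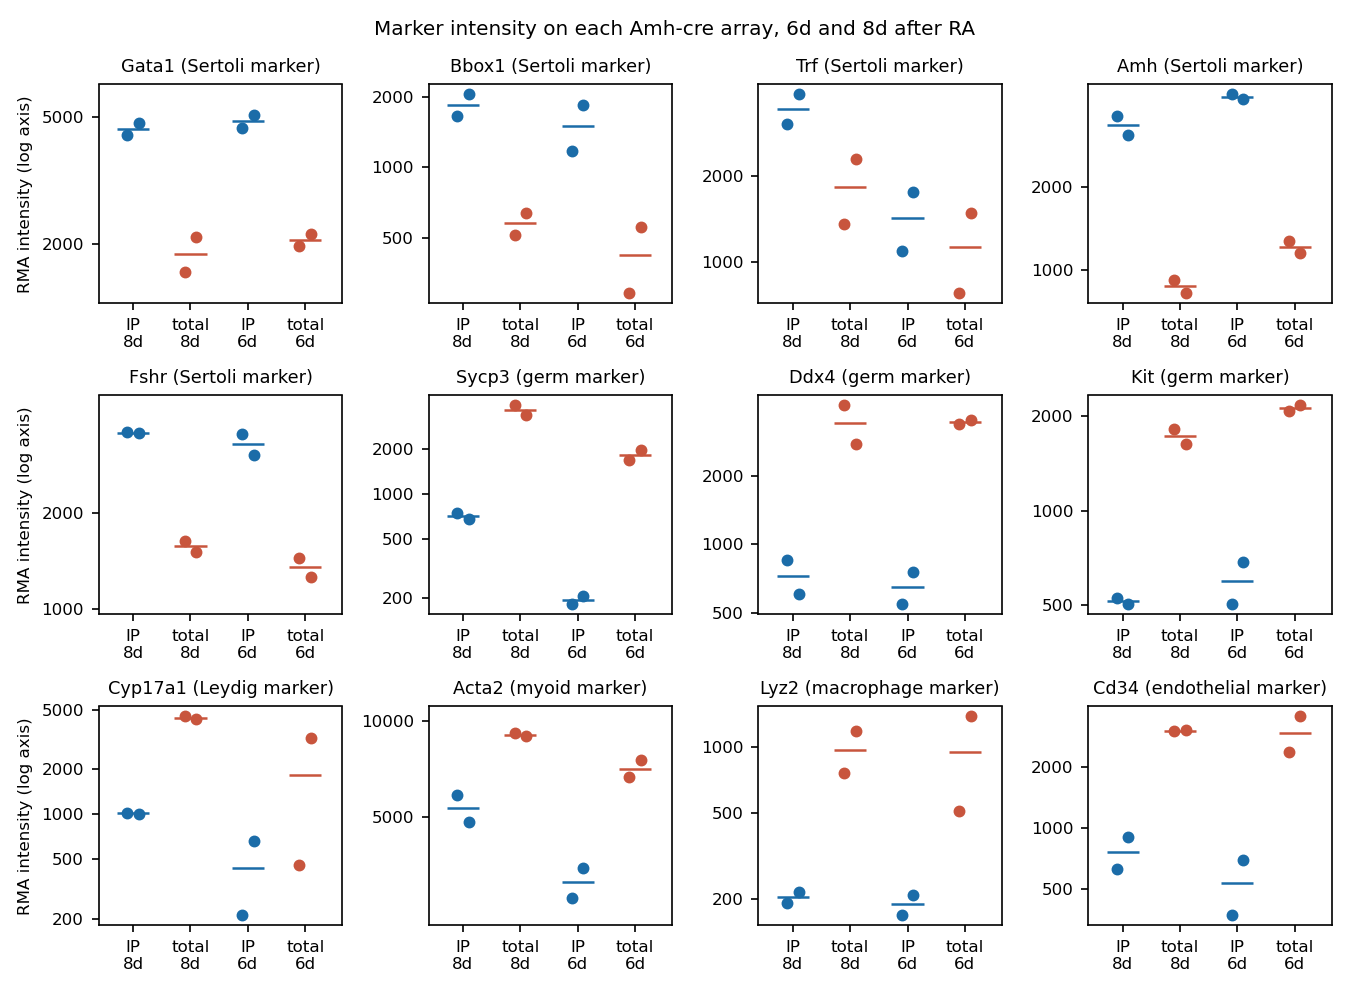
RMA intensity (log axis) of 12 markers on each of the 8 Amh-cre arrays. Points are arrays, lines are the means of 2 arrays, IP is blue and total red, and each panel gives 8d and then 6d. The 5 Sertoli markers lie higher and the others lower in IP RNA, except that the fractions overlap at 6d for Trf and for Cyp17a1.

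Over both times 1728 of 19938 genes were called (8.67%), with 736 (3.69%) on the higher and 992 (4.98%) on the lower side in IP RNA. The counts of list members called in this contrast, given below, stand beside these shares. The median difference of all genes was 0.12 on the log2 scale, and the IP arrays lay above the total arrays at both times for 41.3% of genes and below them for 19.4%. Depletion reached further than enrichment, to -2.98 against 1.90. The balance of directions depended on the scaling. With each array centred on its median the calls were 1017 higher and 857 lower and the median of all genes was 0.22, while quantile normalization over the tested genes alone gave 466 higher and 970 lower.

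The 15 genes named as most enriched had differences between 1.65 and 1.88. The rule that named them required that the fractions did not overlap at either time, so the lack of overlap is no separate result for them. Slc6a14 (1.68) and Slc1a4 (1.72) carry amino acids, Aass (1.78) degrades lysine, Scd4 (1.67) desaturates fatty acids, and Ces2g (1.84) encodes a carboxylesterase. Ces2g measured 2171 and 2783 in IP RNA, against 618 and 683 in total RNA at 8d and 1029 and 1539 in IP RNA, against 298 and 459.5 in total RNA at 6d. Mcf2 (1.79) stood beside Hmgn5 (1.76), a nucleosome-binding protein, the zinc finger gene Zfp536 (1.66) and Vasn (1.65), a membrane protein that binds TGF-β. Dcaf12l1 (1.75), Klhl4 (1.68) and Hpdl (1.65) completed the set with Amh, Bbox1 and Mpeg1.

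Mpeg1 encodes perforin-2, a pore-forming protein best known from macrophages. It had 2505 and 2648 in IP RNA, against 665 and 828 in total RNA at 8d and 2326 and 2346 in IP RNA, against 611 and 755 in total RNA at 6d (log2 1.79 ± 0.18, adjusted p = 3.41e-12). The macrophage list went the other way, with 8 of 18 measured members lower, 0 higher and a median of -0.76. Its summed intensity was 4407 to 5314 in IP RNA, against 6139 to 10622 in total RNA. Mrc1, the macrophage mannose receptor (named after its value was seen), was at 0.89, under 2-fold.

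Among Sertoli cell transcription factors 5 of 15 measured were higher, 1 was lower, and the list's median was 0.75, against 3.69% of genes higher and a median of 0.12 over all genes. Gata4, which with Gata1 belongs to the GATA factors of the gonad, had 4919.7 and 5303 in IP RNA, against 2060.2 and 2221 in total RNA at 8d and 5316 and 4728 in IP RNA, against 2206 and 2167 in total RNA at 6d. Sox9, which directs Sertoli cell differentiation, had 8463 and 8022 in IP RNA, against 3255 and 3190.2 in total RNA at 8d. Both were higher on every IP array, as was Sox8, a relative of Sox9, with log2 differences of 1.23 ± 0.12, 1.21 ± 0.14 and 1.19 ± 0.11. Tcf21, a factor of mesenchymal cells in many tissues, was the member that was lower: it measured 231 and 237 in IP RNA, against 941 and 821 in total RNA at 8d and 223 and 260.1 in IP RNA, against 1186 and 1190.0 in total RNA at 6d (log2 -2.11 ± 0.14). With quantile normalization over the tested genes alone, 1 of the 15 was higher and 1 lower.

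Among 24 measured Sertoli secreted proteins 7 were higher and 0 lower (median 0.55). Beside Amh these included Inhbb (1.24 ± 0.13), the inhibin and activin subunit beta B, Serpina5 (1.15), a serine protease inhibitor, Wfdc6a (1.15), and Dhh (1.02), the hedgehog ligand by which Sertoli cells signal to Leydig and myoid cells. The cystatins Cst12 and Cst9 were under 2-fold and not called. Cst9 had 10258 and 9839 in IP RNA, against 6323 and 6611 in total RNA at 8d and 10741 and 11709 in IP RNA, against 6667 and 7176 in total RNA at 6d, with all IP arrays higher (log2 0.67 ± 0.18, adjusted p = 0.00109), and Cst12 was at 0.95. Without the 6d arrays numbered 1, 5 of 24 were higher.

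Of 15 measured receptors and signalling genes 1 was higher and 1 lower (median 0.40), few calls beside 3.69% higher and 4.98% lower over all genes. Fshr, the receptor through which FSH acts on Sertoli cells, measured 3577 and 3559 in IP RNA, against 1631 and 1515 in total RNA at 8d and 3537 and 3029.6 in IP RNA, against 1442 and 1260.4 in total RNA at 6d, so the fractions were well apart (log2 1.23 ± 0.13, adjusted p = 3.84e-11). Esr1, the estrogen receptor alpha, was lower (-1.11), a call lost with quantile normalization (-0.98). The promoter of Fshr is shown because its E-box, where upstream stimulatory factors bind in Sertoli cells, lies in the window the annotation gives. It is at chr17:89200626-89200925 on the minus strand of GRCm38.p6 (RefSeq), 250 bases before to 50 after the start, with the E-box CACGTG in capitals 61 bases upstream of the start.
Fshr: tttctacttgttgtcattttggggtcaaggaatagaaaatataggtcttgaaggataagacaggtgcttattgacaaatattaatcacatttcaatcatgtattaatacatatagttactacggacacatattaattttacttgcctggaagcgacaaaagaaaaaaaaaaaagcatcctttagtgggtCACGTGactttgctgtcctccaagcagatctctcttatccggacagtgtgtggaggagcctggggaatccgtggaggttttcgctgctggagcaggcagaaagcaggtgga
CACGTG reads the same on both strands and was found in 7.15% of all 32851 promoters of that length.

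Junction genes were called on both sides. Of 23 measured genes of the blood-testis barrier and cell junctions, 6 were higher and 3 lower (median 0.81), against 3.69% higher and 4.98% lower over all genes. Ocln, the tight junction protein occludin, had 3524 and 3507 in IP RNA, against 1422 and 1473 in total RNA at 8d and 2973 and 2843 in IP RNA, against 1075 and 1189 in total RNA at 6d, with narrow groups far apart (log2 1.32 ± 0.08, adjusted p = 1.38e-19). Nectin2 (1.17) and the N-cadherin gene Cdh2 (1.16), which join Sertoli cells to germ cells and to each other, were higher too. The lower members were Gjc1, the gap junction protein connexin 45 (-1.43), Marveld2, the tricellular tight junction protein tricellulin (-1.21), and Nectin3 (-1.05, named after its value was seen), the nectin of the germ cell side. Cldn11, the claudin of the barrier, measured 11353 and 10929 in IP RNA, against 6106 and 6662 in total RNA at 8d, a difference under 2-fold over both times (log2 0.81 ± 0.12, adjusted p = 2.12e-07).

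Genes by which Sertoli cells feed germ cells were higher in 5 of 25 measured and lower in 0 (median 0.67). Pfkl, the liver type phosphofructokinase of glycolysis, had 4002 and 4943 in IP RNA, against 1536 and 2025 in total RNA at 8d and 2453 and 3443 in IP RNA, against 669 and 1208 in total RNA at 6d, without overlap at either time (log2 1.51 ± 0.17). Hk2, the hexokinase (1.41), Slc2a1, the glucose transporter GLUT1 (1.04), and Slc16a3, a lactate exporter (1.11), were also called, with Bbox1. Slc2a1 fell just below 2-fold without the 6d arrays numbered 1 (1.00) and with quantile normalization (0.96). Engulfment genes, which Sertoli cells use to clear dying germ cells, were higher in 4 of 22 and lower in 0 (median 0.54): Elmo1 (1.12), an adapter of the engulfment machinery, the integrin subunits Itgb5 (1.09) and Itgav (1.00), and Mertk (1.04), a receptor for dying cells. All 4 lay close to 2-fold, and 0 of 22 passed with quantile normalization over the tested genes alone. Of 20 cytoskeletal genes Tubb3, a beta tubulin, was higher (2406 and 2340.0 in IP RNA, against 899.9 and 865 in total RNA at 8d, log2 1.60 ± 0.14) and Map2, a microtubule-associated protein, lower (-1.20). With 1 of 20 called in each direction, that list lay near the 3.69% higher and 4.98% lower over all genes.

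Of 23 retinoid genes 2 were higher and 3 lower (median 0.24), a few calls beside 3.69% and 4.98% over all genes. Stra6, the membrane receptor that takes up retinol from its carrier, had 6077 and 7392 in IP RNA, against 2035 and 2481 in total RNA at 8d and 5719.5 and 8269 in IP RNA, against 2302 and 3852 in total RNA at 6d, with IP arrays above total at each time (log2 1.39 ± 0.23). Cyp26a1, an RA-degrading enzyme, was called higher but varied widely: it had 299 and 977 in IP RNA, against 104 and 289 in total RNA at 8d and 104 and 360.1 in IP RNA, against 78 and 171 in total RNA at 6d. In both fractions replicate 2 was far above replicate 1, and the fractions overlapped at 6d. The call (log2 1.19 ± 0.30, adjusted p = 0.000774) was lost without any 1 of 4 arrays, with the lowest value 0.74 without IP 6d replicate 2. It was also lost in a limma fit of the 8 late Amh arrays alone (adjusted p = 0.0876). Cyp26b1, the RA-degrading enzyme of the fetal testis, was lower (559 and 531 in IP RNA, against 1338 and 1486 in total RNA at 8d, log2 -1.32 ± 0.14). Crabp1, which binds RA in the cytoplasm, and Rbp4, the plasma retinol carrier, were lower still (-2.67 ± 0.22 and -2.32 ± 0.22). The synthesis enzyme Aldh1a2 (0.84), the dehydrogenase Rdh10 (0.96) and the receptor Rara (0.85), named after their values were seen, were under 2-fold.

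Of 27 measured ligands of the spermatogonial niche 6 were lower and 1, Dhh, was higher (median -0.02). Over all genes 4.98% were lower and 3.69% higher, so 1 of 27 higher lay near the share of all genes. The call of Dhh was lost with quantile normalization (0.91) and without IP 8d replicate 1 (0.98), and that of Jag1 with quantile normalization (-0.99), which left 5 lower and 0 higher. Igf1, a growth factor made by interstitial cells among others, had 301 and 315 in IP RNA, against 1331 and 1382 in total RNA at 8d and 250.2 and 419 in IP RNA, against 984 and 1366 in total RNA at 6d (log2 -1.99 ± 0.16). Its IP arrays lay far below the total arrays. Bmp4 (-1.96), Igf2 (-1.88) and the Notch ligands Jag2 (-1.24) and Jag1 (-1.13) were lower as well. Gdnf (0.19), the stem cell factor, and Kitl (0.68), the ligand of KIT, both known as Sertoli cell products and named after their values were seen, did not pass.

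**Figure D2:**
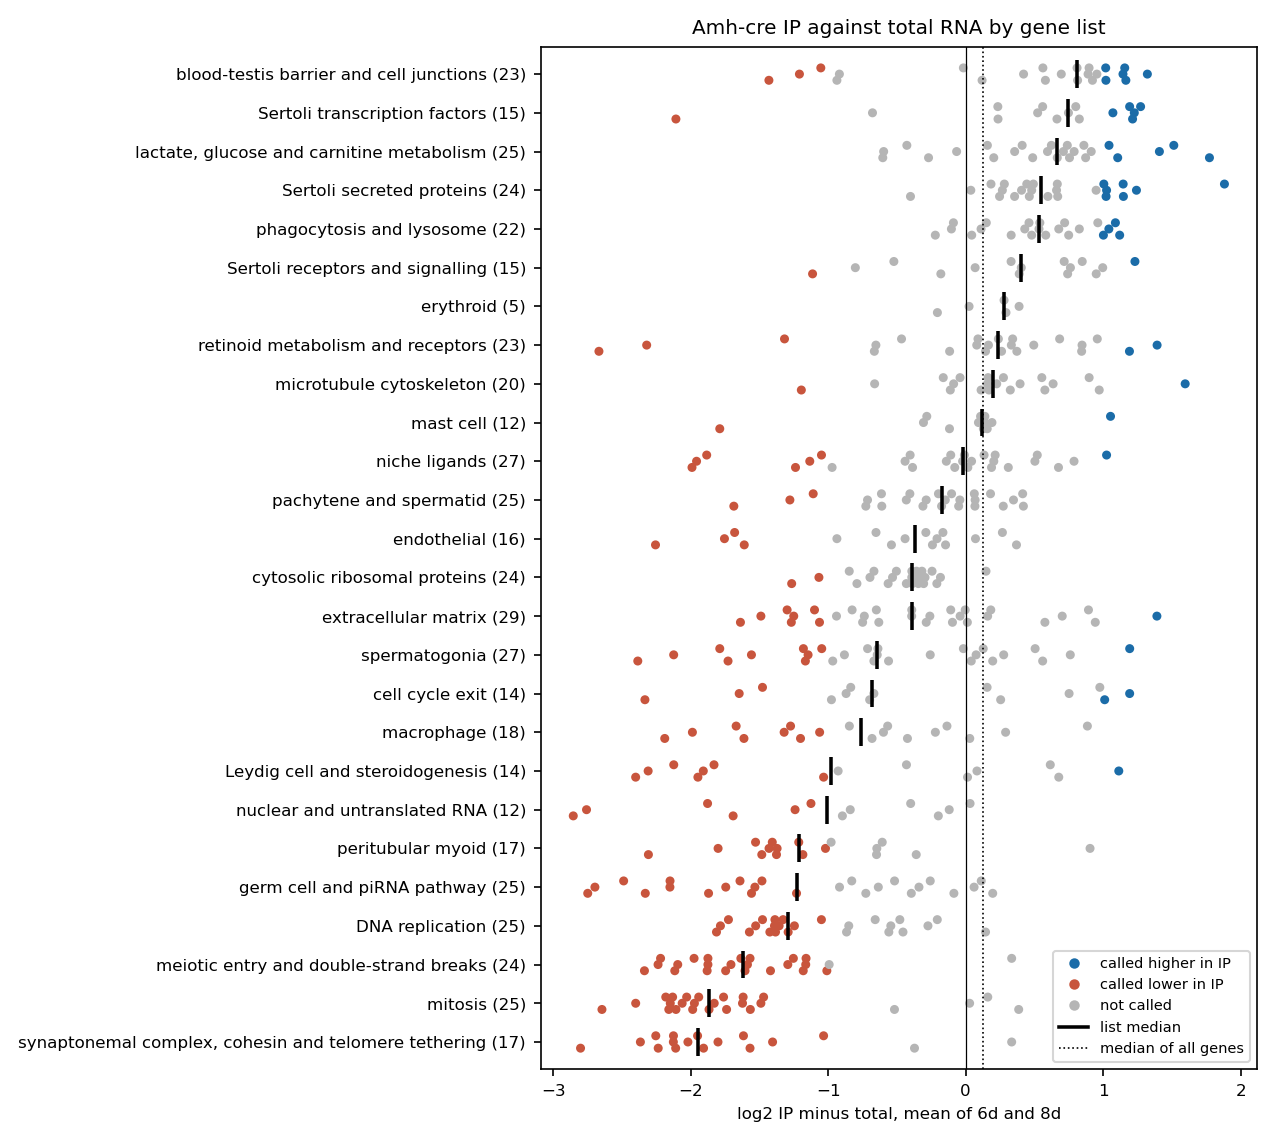
Log2 IP minus total (mean of 6d and 8d, horizontal axis) for the measured members of 26 gene lists, with the number measured in parentheses. Points are genes coloured by call, bars are list medians and the dotted line is the median of all genes, 0.12. Junction, Sertoli and metabolic lists have the highest medians (up to 0.81), and mitotic and meiotic lists the lowest (down to -1.95).

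The counts of the enriched lists moved with the processing. Quantile normalization over the tested genes alone called 2 of 24 secreted proteins, 1 of 23 junction genes and 3 of 25 metabolic genes higher, while germ cell, meiotic entry and mitosis lists kept counts of 13, 22 and 21 lower. Without both 6d arrays numbered 1, 4 of 25 metabolic and 3 of 22 engulfment genes were higher, and lower were 4 junction, 7 niche, 7 spermatogonial, 9 macrophage, 5 endothelial and 2 pachytene and spermatid genes.

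Germ cell genes lay largely on the depleted side. Of 25 germ cell and piRNA pathway genes 13 were lower and 0 higher (median -1.23, against 4.98% of genes lower in all). Mael, which acts in piRNA-directed transposon silencing, measured 1096 and 941 in IP RNA, against 7077 and 6295 in total RNA at 8d and 831 and 1047 in IP RNA, against 6362 and 6471 in total RNA at 6d. The groups were far apart (6.72-fold lower, log2 -2.75 ± 0.10, adjusted p = 8.17e-28). Ddx4, the germ cell RNA helicase, had 849 and 606 in IP RNA, against 4084 and 2763 in total RNA at 8d (log2 -2.33 ± 0.13), and Slc25a31 (-2.70), a mitochondrial ADP/ATP carrier of germ cells, Asz1 (-2.49) and Mov10l1 (-2.15), both of the piRNA pathway, were lower at each time. Tex101 (-2.58), a germ cell surface protein, and the testis serine protease gene Prss50 (-2.77) were among the 15 named as most depleted. The rule that named those 15 also required that the fractions did not overlap at either time.

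Spermatogonial genes were lower in 9 of 27 and higher in 1 (median -0.64), against 4.98% lower and 3.69% higher over all genes. Kit, the receptor of differentiating spermatogonia, had 528 and 507 in IP RNA, against 1818 and 1629.9 in total RNA at 8d and 505 and 689.6 in IP RNA, against 2071 and 2164 in total RNA at 6d, with all IP arrays lower (log2 -1.79 ± 0.20). Sohlh2 (-2.12), Sall4 (-1.73) and Zbtb16 (-1.56), transcription factors of spermatogonia, followed. Utf1, a chromatin factor known from undifferentiated spermatogonia, was the exception. It measured 1833 and 1791 in IP RNA, against 717 and 638 in total RNA at 8d and 1748 and 1789 in IP RNA, against 952 and 863 in total RNA at 6d, so that all IP arrays were higher (log2 1.19 ± 0.12, adjusted p = 1.32e-12).

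Nearly all measured meiotic genes were lower. Of 24 genes of meiotic entry and double-strand breaks 22 were lower and 0 higher (median -1.62), and of 17 genes of the synaptonemal complex, cohesin and telomere tethering 15 were lower and 0 higher (median -1.95). Stra8, the RA-induced gatekeeper of meiosis, had 241 and 231 in IP RNA, against 785 and 1027 in total RNA at 8d and 270.2 and 368 in IP RNA, against 793 and 1597 in total RNA at 6d, always lower in IP RNA (log2 -1.88 ± 0.27). Sycp3, of the axial element, measured 743 and 678 in IP RNA, against 3938 and 3401 in total RNA at 8d and 183 and 208 in IP RNA, against 1696 and 1987 in total RNA at 6d (6.97-fold lower, log2 -2.80 ± 0.17, adjusted p = 1.9e-19). Both fractions held more of it at 8d than at 6d, and the IP arrays stayed below the total arrays. Hormad1 (-2.12), of the unsynapsed axis, the recombinase gene Dmc1 (-2.22), Meioc (-2.34), which protects the meiotic program, and Zcwpw1 (-2.56), a reader of the marks left by PRDM9, were lower too. Of 25 pachytene and spermatid genes 3 were lower and 0 higher (median -0.18), few calls beside 4.98% lower and 3.69% higher over all genes.

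The promoters of Ddx4 and Sycp3 are shown because both hold, within the annotated window, the motifs by which germline genes are kept silent in somatic cells: the E2F6 site GCGGGAA and the E-box CACGTG bound by MGA and MAX. Both promoters cover 250 bases before to 50 after the start (RefSeq, GRCm38.p6), with matches on either strand in capitals. Ddx4 is at chr13:112652261-112652560 on the minus strand, with GCGGGAA 136 bases and CACGTG 29 bases upstream of the start. Sycp3 is at chr10:88459337-88459636 on the plus strand, with GCGGGAA 147 bases and CACGTG 64 and 43 bases upstream.
Ddx4: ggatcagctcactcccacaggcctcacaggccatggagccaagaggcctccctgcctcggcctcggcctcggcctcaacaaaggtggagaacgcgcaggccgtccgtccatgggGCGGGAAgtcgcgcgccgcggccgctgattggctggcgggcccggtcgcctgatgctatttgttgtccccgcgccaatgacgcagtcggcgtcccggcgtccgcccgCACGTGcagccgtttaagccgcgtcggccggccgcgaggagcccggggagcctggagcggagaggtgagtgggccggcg
Sycp3: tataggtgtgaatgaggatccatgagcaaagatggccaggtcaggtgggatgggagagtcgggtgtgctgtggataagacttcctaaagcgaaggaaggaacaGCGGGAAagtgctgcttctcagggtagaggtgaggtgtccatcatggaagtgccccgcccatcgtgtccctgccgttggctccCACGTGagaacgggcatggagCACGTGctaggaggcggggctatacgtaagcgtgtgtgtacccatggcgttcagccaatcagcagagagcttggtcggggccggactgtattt
One or both motifs were found in 12 of 29 promoters of the germ cell and piRNA list, in 8 of 20 of the meiotic entry list and in 7 of 17 of the synaptonemal complex list, against 11.3% of all 32851 promoters. The Sertoli transcription factor and secreted protein lists had 2 of 12 and 1 of 17. Both motifs together, as in Ddx4 and Sycp3, were in only 2 of 29, 3 of 20 and 4 of 17, against 0.457% of all. In the germ cell and piRNA list 11 of 29 held the E-box and 3 the E2F6 site. Promoters were not matched for base composition, a gene can have several, and a match does not show that a factor binds.

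Genes of cell division were low in IP RNA too. Of 25 mitosis genes 21 were lower and 0 higher (median -1.87), and of 25 DNA replication genes 15 were lower and 0 higher (median -1.29). Ccnb2, cyclin B2 of mitotic entry, measured 588 and 468 in IP RNA, against 3526 and 2496 in total RNA at 8d and 482 and 761 in IP RNA, against 4054 and 4337 in total RNA at 6d. Total RNA held several times more than IP RNA on every pair (6.26-fold lower, log2 -2.65 ± 0.11, adjusted p = 2.08e-25). Bub1 (-2.40), a spindle checkpoint kinase, Kif2c (-2.18), a kinesin that takes apart microtubules, the mitotic kinase gene Plk1 (-2.16) and Cdc20 (-2.15), the activator of the anaphase complex, were lower. The 4 not called were Kif23, Cdk1, Tpx2 and Bub3. In replication, Rfc4 (-1.81) of the clamp loader, Rrm2 (-1.78) of nucleotide supply and the helicase subunit gene Mcm5 (-1.73) led.

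The list of cell cycle exit, which also holds cyclins and a pocket protein of cycling cells, was called in both directions. Rbl2 (p130), a pocket protein that silences cell cycle genes in resting cells, had 2119.7 and 2351 in IP RNA, against 991 and 971 in total RNA at 8d and 2379.6 and 2078 in IP RNA, against 1055 and 889 in total RNA at 6d, higher on all IP arrays (log2 1.19 ± 0.11). Its relative Rbl1 (p107), found mostly in cycling cells, was lower (493 and 437 in IP RNA, against 1412 and 1070.2 in total RNA at 8d, log2 -1.48 ± 0.14). Cdkn2d, the CDK inhibitor p19, was at 1.01, a call lost without 4 of the single arrays, and the cyclins Ccne2 (-2.33) and Ccnd3 (-1.65) were lower. In all 2 of 14 were higher and 3 lower (median -0.68), few calls beside 3.69% higher and 4.98% lower over all genes.

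The promoters of Ccnb2 and Plk1 are shown because mitotic genes are known to be switched together through CCAAT boxes, which NF-Y binds, and the cell cycle homology region TTTGAA, which the MuvB complex binds. Both windows run as above (RefSeq, GRCm38.p6), with CCAAT and TTTGAA in capitals where either strand matched. Ccnb2 is at chr9:70421505-70421804 on the minus strand, with CCAAT 87, 54 and 21 bases upstream of the start, and TTTGAA 167 bases upstream and from base 5 downstream. Plk1 is at chr7:122159185-122159484 on the plus strand, with CCAAT 14 bases upstream and TTTGAA from base 31 downstream.
Ccnb2: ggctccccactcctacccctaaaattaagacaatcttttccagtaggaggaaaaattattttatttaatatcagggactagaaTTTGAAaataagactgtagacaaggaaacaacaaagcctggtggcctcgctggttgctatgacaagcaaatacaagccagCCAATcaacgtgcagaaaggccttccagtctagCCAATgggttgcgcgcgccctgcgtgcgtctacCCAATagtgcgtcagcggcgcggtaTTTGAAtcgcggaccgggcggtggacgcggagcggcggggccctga
Plk1: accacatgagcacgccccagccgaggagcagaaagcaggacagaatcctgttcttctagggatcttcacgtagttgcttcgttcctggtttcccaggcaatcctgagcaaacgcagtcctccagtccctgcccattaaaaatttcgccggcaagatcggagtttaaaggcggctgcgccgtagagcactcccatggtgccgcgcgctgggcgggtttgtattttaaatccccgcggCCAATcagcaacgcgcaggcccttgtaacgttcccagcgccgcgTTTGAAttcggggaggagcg
Both motifs stood together in 18 of 25 promoters of the mitosis list (72.0%, for 22 genes with a promoter in the table), against 6.95% of all 32851 promoters and 0 of 12 of the Sertoli transcription factor list. CCAAT alone was in 37.4% of all promoters and TTTGAA in 17.9%.

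Other somatic cells of the testis were depleted as well. Of 14 Leydig cell and steroidogenesis genes 7 were lower and 1 higher (median -0.98), against 4.98% lower and 3.69% higher over all genes. Their summed intensities were 15428 to 20760 in IP RNA, against 15813 to 30579 in total RNA. Cyp11a1, which makes pregnenolone, measured 308 and 311 in IP RNA, against 1307 and 1628 in total RNA at 8d and 131 and 279.8 in IP RNA, against 291 and 1249 in total RNA at 6d. Both 6d samples numbered 1 were low, and the fractions did not overlap within a time (log2 -1.95 ± 0.28). Cyp17a1, of androgen synthesis, had 1023 and 1008 in IP RNA, against 4502 and 4333 in total RNA at 8d and 213 and 660.1 in IP RNA, against 458 and 3220.1 in total RNA at 6d, where the fractions overlapped (log2 -1.91 ± 0.33). Hsd17b3 (named after its value was seen), which makes testosterone and in the fetal mouse testis is made by Sertoli cells, was the member that was higher (1150.2 and 1350.4 in IP RNA, against 504 and 663 in total RNA at 8d, log2 1.11 ± 0.29). Star was not called over both times: IP RNA was the lower fraction at 8d and the higher one at 6d, as described further on. Without the 6d arrays numbered 1 the Leydig counts were the same, 7 and 1.

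Of 17 peritubular myoid genes 11 were lower and 0 higher (median -1.21). Myh11, the smooth muscle myosin, had 1147 and 1351 in IP RNA, against 2906 and 3167 in total RNA at 8d and 547 and 800.0 in IP RNA, against 1908 and 2038 in total RNA at 6d (log2 -1.43 ± 0.13), and Cnn1, calponin (-1.80), and Dcn, the matrix proteoglycan decorin (-2.31), were lower on all arrays. Lyz2, the lysozyme of macrophages, measured 191 and 216 in IP RNA, against 761 and 1180.2 in total RNA at 8d and 169 and 209 in IP RNA, against 507 and 1382 in total RNA at 6d. Its IP values were alike while total RNA varied (log2 -2.19 ± 0.25), and the complement genes C1qb (-1.99) and C1qc (-1.67) were also lower. Cd34, a surface protein of endothelium, had 628 and 906 in IP RNA, against 3026 and 3038 in total RNA at 8d (log2 -2.26 ± 0.14). In the endothelial list 4 of 16 genes were lower and 0 higher (median -0.37), against 4.98% lower and 3.69% higher over all genes. Of 5 erythroid genes 0 were called by limma, with differences between Alas2 at -0.21 and Epb42 at 0.39.

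Matrix genes were lower in 7 of 29 and higher in 1 (median -0.39). Fn1, fibronectin, had 1166 and 1094 in IP RNA, against 3456 and 3515 in total RNA at 8d (log2 -1.64 ± 0.07), and Lamb1 (-1.49), a laminin chain, Nid2 (-1.30) and Eln, elastin (-1.27), were lower. Col18a1, a collagen of basement membranes, was higher: 2623 and 2575 in IP RNA, against 889 and 991 in total RNA at 8d and 2732 and 2934 in IP RNA, against 1041 and 1248 in total RNA at 6d, in tight groups (log2 1.39 ± 0.11). Of 12 mast cell genes Hdc, which makes histamine, was higher (1.05), and Kit, shared with germ cells, lower. These are few calls beside 3.69% higher and 4.98% lower over all genes. The call of Hdc was lost without IP 6d replicate 2 (0.90), without total 6d replicate 1 (0.89) and with quantile normalization (0.99).

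Some untranslated RNAs were strongly depleted. Of 12 nuclear and untranslated RNAs 6 were lower and 0 higher (median -1.01). Terc, the RNA of telomerase, measured 341 and 355 in IP RNA, against 2180.1 and 2952 in total RNA at 8d and 429 and 407 in IP RNA, against 3144 and 2859.7 in total RNA at 6d, with the IP arrays far below (7.23-fold lower, log2 -2.85 ± 0.28, adjusted p = 1.67e-12). Rmrp, the RNA of RNase MRP, which matures ribosomal RNA, had 489.9 and 451 in IP RNA, against 1782 and 2711 in total RNA at 8d and 946 and 843 in IP RNA, against 9231 and 8255 in total RNA at 6d (log2 -2.76 ± 0.19). Both fractions held less at 8d. The RNase P RNA Rpph1 (-1.88) and the nuclear long noncoding RNAs Malat1 (-1.69) and Meg3 (-1.24) were lower. By annotated type, 17 of 53 small nucleolar RNAs, 24 of 675 long noncoding RNAs and 9 of 297 microRNA genes were lower (32.1%, 3.56% and 3.03%) and 0 of each were higher, against 733 higher and 923 lower (4.97%) of 18555 protein-coding genes. Long noncoding and microRNA genes were thus called lower less often than protein-coding genes, and their medians were 0.10 and 0.02. Snora52 (297 and 304 in IP RNA, against 1549 and 1877 in total RNA at 8d, log2 -2.69 ± 0.22) led the small nucleolar RNAs. Many small nucleolar RNAs lie in introns, and signal of a host gene's precursor cannot be told apart from them on an array. Ribosomal protein mRNAs stood slightly lower, with 2 of 24 called lower (Rplp1 at -1.27 and Rpl30 at -1.07), 0 higher and a median of -0.39. The call of Rpl30 was lost with median centring (-0.98), with quantile normalization (-0.92) and without total 8d replicate 1 (-1.00, just under 2-fold).

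A larger share of X-linked than of autosomal genes was called in both directions. Of 739 X-linked genes 68 (9.20%) were higher and 66 (8.93%) lower in Amh IP RNA, against 668 (3.50%) and 916 (4.79%) of 19105 autosomal genes. Single autosomes ranged from 2.42% to 5.22% higher and from 3.40% to 5.94% lower. Among the 15 genes named as most enriched, 5 were X-linked: Mcf2, Hmgn5, Dcaf12l1, Slc6a14 and Klhl4. The X-linked germ cell genes Mageb4 (-2.51), Nxf2 (-2.51), Rhox13 (-2.38), Magea5 (-2.33) and Tex11 (-2.24) were on the lower side. With the Stra8 tag 53 X-linked genes (7.17%) were higher and 101 (13.7%) lower. These shares were not tested.

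The 8d and 6d contrasts were compared next. At 8d 2086 genes were called (10.5%), 937 (4.70%) higher and 1149 (5.76%) lower, and at 6d 1611 (8.08%), 650 (3.26%) higher and 961 (4.82%) lower. With median centring the 8d calls were 1472 higher and 900 lower, with a median of 0.26 over all genes. Of the genes higher at 8d 526 were also higher at 6d (56.1% of 8d, 80.9% of 6d), and of those lower 743 (64.7% and 77.3%). The test of the difference itself called 147 genes (0.737%), of which 36 (0.181%) had a higher and 111 (0.557%) a lower IP minus total value at 8d than at 6d. With median centring these were 69 and 87. The higher side was the less stable: it held 109 genes without IP 6d replicate 2, 69 without IP 8d replicate 1, 17 without IP 8d replicate 2 and 21 without both 6d arrays numbered 1, with 151, 112, 103 and 79 on the lower side. The number of calls moved most with one array: it was 260 without IP 6d replicate 2 and otherwise between 120 and 197 with 1 array left out. Without both 6d arrays numbered 1 it was 100.

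Most of the 111 differed in total RNA. For 104 of them the shift from 6d to 8d was larger in total RNA than in IP RNA, with medians of 1.73 in total RNA and 0.50 in IP RNA. Of the 24 genes of meiotic entry and double-strand breaks 5 were lower and 2 higher at 8d (median -0.15), and of the 17 of the synaptonemal complex list 2 were lower and 1 higher (median 0.02). Over all genes the shares were 0.557% lower and 0.181% higher. The higher genes of these lists were Ctcfl and Rec8, a meiotic cohesin shared by both lists (1.34, named after its value was seen). Meiob, which stabilises recombination intermediates, measured 313 and 301 in IP RNA, against 1884 and 1422 in total RNA at 8d and 43.1 and 47.1 in IP RNA, against 60.1 and 60.9 in total RNA at 6d. At 6d all 4 values were low, and at 8d total RNA was high and IP RNA followed at a lower level (8d minus 6d -1.99 ± 0.23, adjusted p = 6.55e-08). Spo11, which cuts the DNA to start recombination, had 278 and 287 in IP RNA, against 1354 and 1293 in total RNA at 8d and 115 and 109.5 in IP RNA, against 147 and 141 in total RNA at 6d (-1.87 ± 0.26, adjusted p = 3.19e-06). Dcaf8l (-1.89), Glipr1l2 (-1.90), Gml (-2.05) and Spata4 (-1.81) followed, though Gml and Spata4 were not called without total 8d replicate 1 (-1.27 and -1.23), nor Gml without total 6d replicate 2 (-1.46) or IP 8d replicate 2 (-1.60). In a fit of the 8 late Amh arrays alone 7 of the 16 named genes lost their call, with adjusted p = 0.149 for Glipr1l2, 0.245 for Gml, 0.108 for Spata4, 0.0785 for Star, 0.0682 for Tgfbi, 0.104 for Dock6 and 0.267 for Tmem63c.

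Other genes crossed between the fractions. Star, which brings cholesterol to the mitochondrion for steroid synthesis, had 1019 and 1162 in IP RNA, against 2233 and 2329.8 in total RNA at 8d, but 1336 and 2134 in IP RNA, against 548 and 1140.0 in total RNA at 6d. IP RNA was the lower fraction at 8d and the higher one at 6d (-2.16 ± 0.46, adjusted p = 0.00298), and the call was lost without total 6d replicate 1 (-1.63), the array with low Leydig cell signal, and without both 6d arrays numbered 1 (-1.97). Tgfbi, a TGF-β-induced matrix protein, showed 825 and 675 in IP RNA, against 1706 and 1917 in total RNA at 8d and 3968 and 2053 in IP RNA, against 2024 and 1872 in total RNA at 6d, the same reversal (-1.83 ± 0.31). In the opposite direction Dock6, an activator of Rac and Cdc42, had 1909 and 2969 in IP RNA, against 1942 and 2246 in total RNA at 8d and 701 and 1315 in IP RNA, against 2749 and 2683 in total RNA at 6d (1.69 ± 0.24, adjusted p = 7.09e-06), and stood at 0.96, uncalled, with the mean of its probe sets. Raver2 (1.53 ± 0.21), Trim59 (1.44), Steap1 (1.45), Rny1 (1.49), Ctcfl (1.35), Tmem63c (1.54) and Plekhf1 (1.36) were also higher at 8d. Of these Tmem63c lost its call without 3 single arrays (0.80 without IP 6d replicate 1, 1.30 without total 8d replicate 1 and 1.22 without IP 8d replicate 2) and Plekhf1 without 5 (1.10 to 1.37), and without both 6d arrays numbered 1 they stood at 0.74 and 1.10, uncalled as was Rny1 (1.57). Ctcfl, a germline relative of CTCF, measured 147 and 154 in IP RNA, against 185 and 190.1 in total RNA at 8d and 259 and 291 in IP RNA, against 885 and 859 in total RNA at 6d, with total RNA lower at 8d. Of the 15 Sertoli transcription factors, 24 secreted proteins and 15 receptors 0 were called in this limma test, against 0.737% of all genes. At that share, 0 calls do not set these lists apart from all genes.

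**Figure D3:**
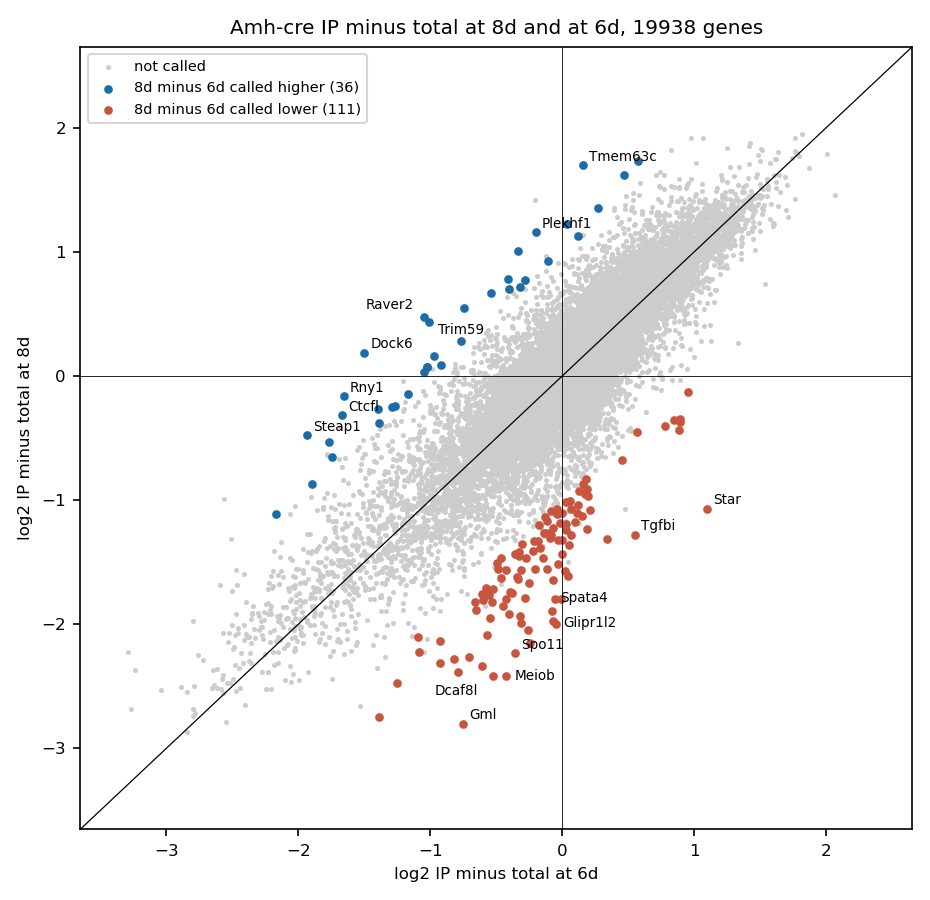
Log2 IP minus total at 8d (vertical) against 6d (horizontal) for 19938 genes in the Amh-cre line, each the difference of means of 2 arrays. Coloured points are the 36 genes called higher and the 111 called lower at 8d than at 6d, the 16 named ones are labelled, and the diagonal marks equal values. Star and Tgfbi lie above 0 at 6d and below it at 8d.

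Set against the first days after RA, the late pattern differed for 195 genes (0.978%): 61 (0.306%) had a higher and 134 (0.672%) a lower IP minus total value at 6d and 8d than on average at 0, 12h, 24h and 48h. The higher count was 98 without IP 6d replicate 1 and 39 without IP 6d replicate 2, with 141 and 146 lower. Time after RA and the age of the animals cannot be told apart here. The identity markers Gata1 (-0.01), Sox9 (0.52) and Fshr (0.44) were not called. Bbox1 was, and stood 1.43 ± 0.22 higher late. The largest gain was that of Ano1, a calcium-activated chloride channel, whose log2 IP minus total was -0.80 at 0, -1.04 at 12h, -1.09 at 24h, -1.26 at 48h, 0.90 at 6d and 1.29 at 8d. IP RNA was below total RNA up to 48h and above it from 6d (2.14 ± 0.26, adjusted p = 1.59e-08).

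The other genes named as higher late have varied roles. Of 29 matrix genes 1 was higher and 0 lower, against 0.306% higher and 0.672% lower over all genes. So few calls do not set the matrix list apart. Sulf2, which trims sulfate from heparan sulfate (2.12 ± 0.18), Postn, the matrix protein periostin (1.78 ± 0.29), Entpd2, a nucleotide-splitting enzyme (1.71), Ank2, a membrane anchor (1.63), and Scd1, a fatty acid desaturase (1.68), were called. Sulf2, Postn and Scd1 were not called between the fractions at the late times themselves (0.17, 0.30 and 0.60, adjusted p = 0.347, 0.268 and 0.0759). Their early values were all negative, with Sulf2 at -1.89 at 0 and -2.02 at 48h. Cpa3, a mast cell protease, was among the 8 named (1.53), with intensities of 63.5 to 95.4 on the late arrays. Utf1 changed sides between 24h and 48h. Its value was -1.48 at 0, -0.35 at 12h, -0.61 at 24h, 0.76 at 48h, 0.96 at 6d and 1.42 at 8d (1.62 ± 0.14, adjusted p = 5.67e-12).

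Genes with lower late values included some of germ cells. Prss50 was close to 0 at the early times, at 0.04 at 0, -0.02 at 12h, 0.13 at 24h and 0.23 at 48h, and was at -2.80 at 6d and -2.74 at 8d (-2.86 ± 0.38, adjusted p = 1.33e-07). Prdm9, which places the sites of meiotic recombination, lay between -0.24 and 0.24 early and at -1.75 at 6d and -1.74 at 8d (-1.76 ± 0.24). Cntd1 (-1.76), which matures crossovers, and Efcab2 (-1.61) were lower late. Rhox13 (-1.67), Cd63, a tetraspanin of endosomes (-1.80 ± 0.17), and Tmem176b (-1.69) were lower as well. Ccnb2 stood at 0.21 at 0, 0.01 at 12h, -1.51 at 24h, -2.73 at 48h, -2.79 at 6d and -2.50 at 8d (-1.64 ± 0.13). By list, 6 of 25 mitosis genes and 6 of 24 meiotic entry genes were lower late and 0 of each higher, with medians of -0.75 and -0.79, against 0.04 over all genes. The germ cell and piRNA list had 0 of 25 lower and 0 higher (median 0.16), and of 27 spermatogonial genes 2 were lower and 1 higher (median 0.34). Over all genes 0.672% were lower and 0.306% higher. At those shares, 0 of 25 does not set the germ cell and piRNA list apart from all genes.

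**Figure D4:**
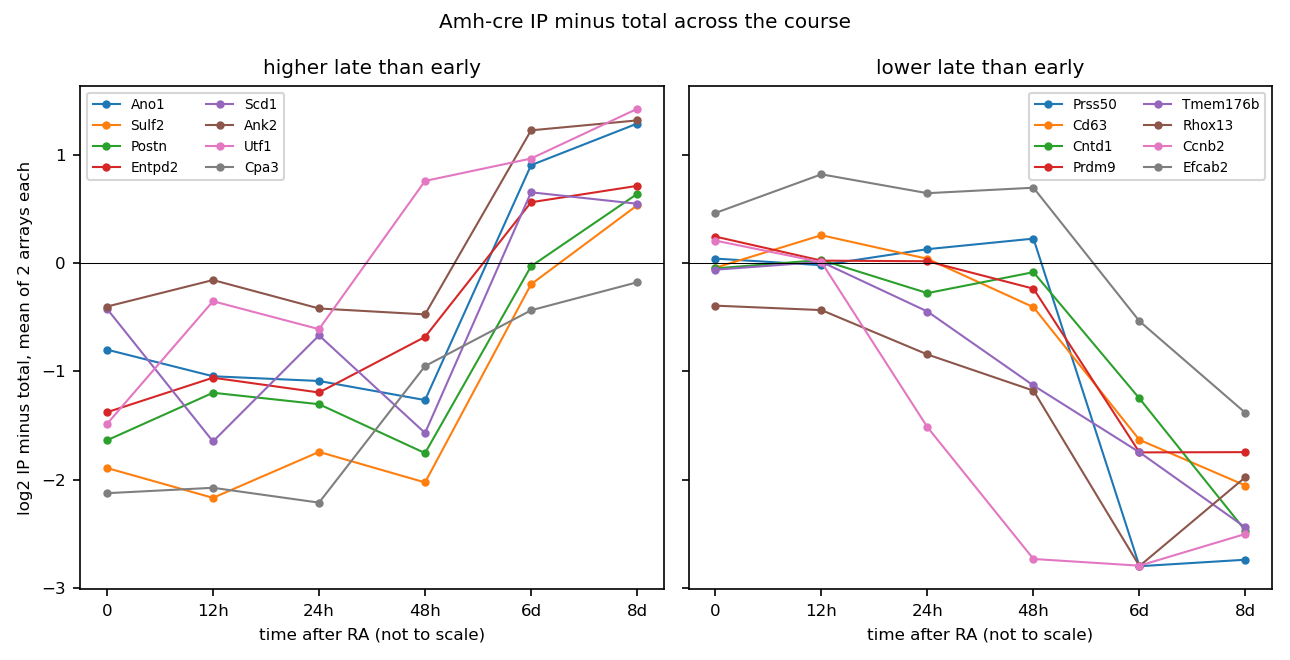
Log2 IP minus total in the Amh-cre line at 6 times after RA (horizontal axis, not to scale) for the 8 genes named as gaining (left) and the 8 named as losing (right) between the early and late times. Each point is the difference of the means of 2 arrays. Ano1, Ank2 and Utf1 are above 0 at 6d and 8d and below it at 0, and Prss50 is far below 0 at 6d and 8d only.

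Last, the contrast was set beside that of the germ cell tag. In the Stra8 line at the same times 1773 genes were called (8.89%), 506 (2.54%) of them higher and 1267 (6.35%) lower. Of the 736 genes higher with the Amh tag 370 (50.3%) were lower with the Stra8 tag, and 1 was higher with both: Sptb, the erythroid and muscle spectrin (1.17 with the Amh tag and 1.27 with the Stra8 tag). Of the 992 lower with the Amh tag 202 (20.4%) were higher with the Stra8 tag. Lower with both tags were 208 genes, which are 21.0% of those lower with the Amh tag and 16.4% of those lower with the Stra8 tag. The difference between the lines passed the test for 3934 genes (19.7%), 2079 (10.4%) higher with the Amh tag and 1855 (9.30%) lower.

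Markers of other somatic cells were among the genes lower with both tags. They included 11 of the 17 myoid genes, 8 of 18 macrophage genes, 6 of 14 Leydig cell genes, 4 of 16 endothelial genes and 4 of 12 nuclear and untranslated RNAs, against 1.04% of all genes. Ifitm3, an interferon-induced protein that blocks virus entry and marks early germ cells and vessels, had the largest depletion of the genes named in the Amh line. It measured 253 and 269.6 in IP RNA, against 1804 and 1559.6 in total RNA at 8d and 163 and 252 in IP RNA, against 1806 and 2105 in total RNA at 6d (-2.98 with the Amh tag and -3.21 with the Stra8 tag). Cav1, caveolin 1 of vessels and stroma, stood at -2.56 and -2.85, Terc at -2.85 and -2.82, and Lyz2 at -2.19 and -2.99. Cnn2 was also low with both (-2.74 and -1.29).

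Named by the size of the gap between the tags, Wfdc6a (4.43 ± 0.26, adjusted p = 2.33e-20), Mgst1, a membrane glutathione transferase (4.36), Qpct, which forms pyroglutamate ends (4.31), Slc6a14 (4.30), Capn6 (4.20), Cst9 (4.20), Plac1 (4.19) and Cst12 (4.14) were higher with the Amh tag. Cst9, under 2-fold in the Amh line (0.67), was at -3.53 in the Stra8 line. Magea5 (-4.52 ± 0.34, adjusted p = 1.97e-16), Mageb4 (-3.76), Prss50 (-3.71), Rhox13 (-3.71), Slc25a31 (-3.60), Nlrp4c (-3.57), Nxf2 (-3.54) and Crabp1 (-3.50) were lower with it. Sycp3 and Mael, among the most depleted with the Amh tag, were at only 0.14 and 0.30 with the Stra8 tag.

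**Figure D5:**
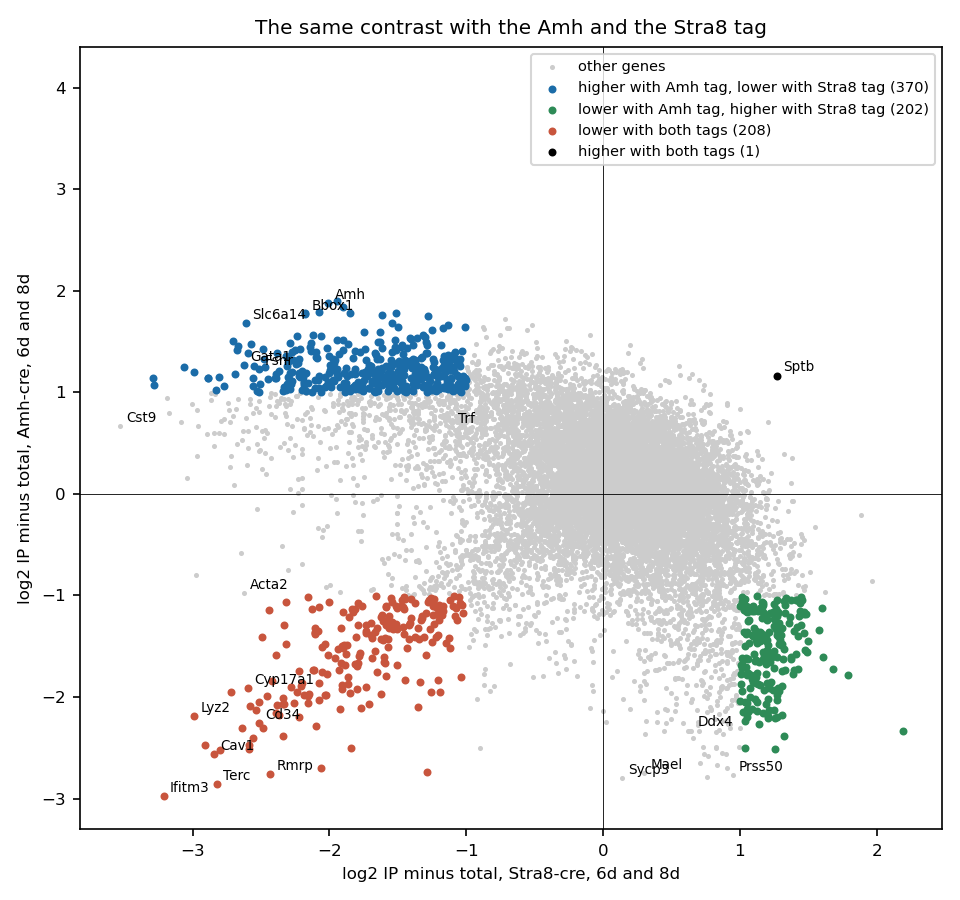
Log2 IP minus total at 6d and 8d in the Amh-cre line (vertical) against the Stra8-cre line (horizontal) for all genes. Colours mark genes called in both lines: 370 higher with the Amh and lower with the Stra8 tag, 202 the reverse, 208 lower with both and 1 higher with both.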

How the data were processed

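RNA of 77 arrays was measured as intensity on a 1-colour, gene-level Affymetrix array. The deposited intensity values are on a linear scale and, per the submitters' processing notes, came from RMA, with version and settings not given in the sources used. RNA was amplified to cDNA before labelling, per the labels' protocols. Values were used as log2 without rescaling. Of 28853 probe sets, 5443 without a listed gene and 1621 with several were left out, and of 999 genes with several probe sets the brightest was kept, leaving 19938 genes. Arrays give no depth, so precision rests on their number and, for low signals, on the floor.

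A limma 3.58.1 fit in R 4.3.3 gave each of 35 groups its own mean (42 residual degrees of freedom), with an intensity trend, and contrasts of those means. Genes were called at a Benjamini-Hochberg adjusted p under 0.05, two-sided, and at least 2-fold. Changes are log2 differences ± SE of the fit. Values are given as replicate 1 and then 2. The main fit had no replicate block. In 1 alternative IP and total samples of the same number were treated as paired, because their residuals correlated. The correlation was 0.58 at 6d and 0.39 at 8d over all genes (2 pairs each, against a minimum of 0.1). Genes are not independent, so this does not show that such samples came from the same animals. In simulated data with 200 changed genes of 19938, all 50 genes at each of 4 sizes (log2 -2, -1.58, 1.58 and 2) were recovered in the late contrast. The simulated noise was independent, and no size near the 2-fold threshold was tried. Recovery of genes close to that threshold was therefore not tested.

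Named genes were the 15 largest called differences in each direction without overlap, 8 per direction and interaction, up to 5 per list and a set of markers. Predicted and clone symbols were left out. The comparison, the 26 lists and the alternatives were chosen with earlier results of these data known. Promoters come from RefSeq (GRCm38.p6). The Amh arrays labelled 4h and 4d and the Ngn3-cre arrays served only to estimate the spread.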

Additional observations from a re-analysis of the deposited data

Results flagged for a closer look

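Results in this paragraph were singled out because the IP minus total difference itself differed between times or lines in the limma test of the interaction. Between 8d and 6d it differed for 147 genes. The named ones were Dock6 (1.69), Tmem63c (1.54), Raver2 (1.53), Rny1 (1.49), Steap1 (1.45), Trim59 (1.44), Plekhf1 (1.36) and Ctcfl (1.35) on the higher side. On the lower side they were Star (-2.16), Gml (-2.05), Meiob (-1.99), Glipr1l2 (-1.90), Dcaf8l (-1.89), Spo11 (-1.87), Tgfbi (-1.83) and Spata4 (-1.81).

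Between the late and the early times it differed for 195 genes, among them Ano1 (2.14), Sulf2 (2.12), Postn (1.78), Entpd2 (1.71), Scd1 (1.68), Ank2 (1.63), Utf1 (1.62) and Cpa3 (1.53). Lower late were Prss50 (-2.86), Cd63 (-1.80), Cntd1 (-1.76), Prdm9 (-1.76), Tmem176b (-1.69), Rhox13 (-1.67), Ccnb2 (-1.64) and Efcab2 (-1.61). Between the Amh and the Stra8 line it differed for 3934 genes. The named ones were Wfdc6a (4.43), Mgst1 (4.36), Qpct (4.31), Slc6a14 (4.30), Capn6 (4.20), Cst9 (4.20), Plac1 (4.19) and Cst12 (4.14), and lower with the Amh tag Magea5 (-4.52), Mageb4 (-3.76), Prss50 (-3.71), Rhox13 (-3.71), Slc25a31 (-3.60), Nlrp4c (-3.57), Nxf2 (-3.54) and Crabp1 (-3.50). Groups of 2 arrays are too small for a search for outlying samples.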

How the results depend on the processing

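Counts of calls moved by over 1.5 times only with no fold minimum, in the 8d minus 6d test on its own 8 arrays, and in that test without IP 6d replicate 2. With no fold minimum the counts were 11321 at both times, 8904 at 8d, 8092 at 6d, 501 for 8d minus 6d, 3695 for late minus early, 10667 in the Stra8 line and 9764 between the lines. On its own 8 arrays the 8d minus 6d test called 88 genes. With each array left out in turn the counts lay between 1699 and 1779 at both times, 2005 and 2249 at 8d, 1621 and 1765 at 6d, 120 and 260 for 8d minus 6d, 185 and 239 for late minus early, 1729 and 1857 in the Stra8 line and 3849 and 4033 between the lines. A group left with 1 array was assumed to vary like the others. Median centring gave 1472 higher and 900 lower at 8d. Chosen after seeing the data were the fit without both 6d arrays numbered 1 (1702 calls at both times, 1551 at 6d, 100 for 8d minus 6d) and quantile normalization over the tested genes alone (1436 at both times). With the replicate number as a block, which pairs IP and total samples, the counts were 1728, 2086, 1611, 157, 195, 1774 and 3936 in the order of comparisons above, all within 1.5 times of the unblocked counts. Of the named genes 151 of 193 kept their side of the threshold and their direction in the late contrast under every alternative, as did 7 of 16 for 8d minus 6d, 16 of 16 for late minus early and 16 of 16 between the lines. Changes of sign in the late contrast were limited to genes not called there. Star was at -0.076 with quantile normalization, -0.13 with it over the tested genes alone, -0.082 without both 6d arrays numbered 1, and between -0.25 and 0.28 with 1 array left out. Sulf2 was at -0.067 with quantile normalization over the tested genes alone and between -0.21 and 0.54 with 1 array left out, Slc4a1 at -0.0048 without both 6d arrays numbered 1 and between -0.074 and 0.12, and Alas2 between -0.44 and 0.033. The causes were not tested. Low intensities are compressed towards the floor, so differences of dim genes are understated.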
